A study of Mus musculus with 2 samples.

Results

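The cells described here were kidney parenchymal cells that the deposited annotation had placed in its non-EM-like CD4+ T cell cluster. They were chosen by a measured value: a cell of the Vsir-/- library in that cluster was taken when it held 0 UMIs summed over Cd3d, Cd3e, Cd3g, Trac, Trbc1 and Trbc2, the 6 transcripts of the T cell receptor and its CD3 chains. A UMI, a unique molecular identifier, marks 1 captured transcript. The rule found 233 of the 349 Vsir-/- cells of the cluster (66.8%, exact 95% interval 61.6 to 71.7%), of 1844 cells in the Vsir-/- library and 7314 cells in both libraries. In the WT library the same rule found 0 of 895 cells of the cluster, which allows a share of up to 0.335% (3 counts).

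The study compared single-cell RNA sequencing of kidney cells from WT mice and from mice that lack VISTA, the checkpoint protein encoded by Vsir, after nephrotoxic nephritis (NTN). There was 1 library per genotype, and neither the number of mice behind a library nor the time of harvest was given in the sources used here. The mice of both groups were C57BL/6, 8 weeks old and, per the study's methods, male. Both groups received 200 μg of sheep IgG in complete Freund's adjuvant intraperitoneally and, 4 days later, sheep nephrotoxic serum intravenously, at 2 μL/g by the labels, whereas the study's methods state a different dose. Per the labels the WT library held sorted CD45+ leukocytes whereas the Vsir-/- library took in every kind of kidney cell. The study's methods describe a CD45+ sort for the experiment. Genotype and sort therefore cannot be told apart, and no difference between the libraries is read here as an effect of Vsir. The targeted gene had 8 UMIs in the Vsir-/- library and 4278 in the WT library, and 0 in the 233 cells.

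As background, the nephron is a chain of epithelial segments. The proximal tubule reclaims most of the filtered sugar, amino acids, phosphate and protein and depends on mitochondrial fuel oxidation, the thin limbs of Henle's loop carry water, salt and urea through the medulla, the thick ascending limb makes uromodulin and takes up salt, and the collecting duct sets the final water and acid content through principal and intercalated cells. Fenestrated glomerular capillaries, arterioles, peritubular capillaries and vasa recta supply these segments, and none of these cells carries a T cell receptor.

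The WT library held 32799550 UMIs and the Vsir-/- library 18601189. The 233 cells were deeper than the other cells of the cluster. They held 3378584 UMIs in all, and a cell held between 603 and 91812 UMIs with a median of 9616 and a median of 3389 genes. The 116 Vsir-/- cells of the cluster with a T cell transcript had a median of 5350 UMIs and 1687 genes. Counts below are given with exact Poisson intervals and shares with exact binomial intervals, both at 95%, which cover counting error only. There is 1 library, cells are not replicates, and no test between groups was possible, so that all values are descriptions. Levels are counts per 1000000 UMIs of the same cells (CPM), a scale that depends little on transcript length because the libraries count 1 end of each transcript.

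Each cell was first called by lineage from marker lists, after subtracting the mean of the Vsir-/- neutrophil cluster as a background. A kidney lineage was called in 232 of the 233 cells and a leukocyte lineage in 0, and 1 cell had no call. The calls were proximal tubule in 79 cells (33.9%, 27.9 to 40.4%), thin limb in 63 (27.0%, 21.4 to 33.2%) and endothelium in 54 (23.2%, 17.9 to 29.1%). The distal nephron made up the rest, with 17 cells called principal, 9 cells of the thick ascending limb, 5 of the distal convoluted or connecting tubule and 4 intercalated cells, and 1 cell was called stroma. Of the 17, 11 lay in a sub-cluster whose first genes were led by the distal convoluted or connecting list, described below as S100g. Podocytes, parietal epithelium, urothelium and red blood cells were called in 0 cells each. The runner-up list scored within 0.1 of the best list in 8 cells. The neutrophil cluster was not free of kidney lineage calls, which were made in 48 of its 158 cells. Whether those 48 were kidney cells was not tested. Of the 233 calls, 229 were the same without the subtraction. After each cell was thinned to 1000 UMIs, 212 of the 224 calls that could be made were the same.

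The UMIs of the 6 marker genes named for these cells lay in different lineages, Emcn and Kdr together in the endothelium. Kap, a kidney androgen-regulated protein of the proximal tubule, had 6831 UMIs in 125 cells, and 98.1% of them lay in cells called proximal tubule. Umod, the uromodulin gene, had 1732 UMIs in 207 cells, of which 652 lay in the 9 cells called thick ascending limb. Aqp2, the vasopressin-regulated water channel of the collecting duct, had 1946 UMIs in 63 cells, and 92.1% lay in the 17 cells called principal. Those 3 genes therefore differed in spread, Umod being found in most cells and most UMIs of Aqp2 and Kap lying in few. Epcam, an adhesion molecule of the distal and thin-limb epithelium, had 1995 UMIs in 117 cells and reached 1751 CPM in the thin limb against 79 CPM in the proximal tubule, or 42.6 CPM there without 1 barcode of the Elf5 sub-cluster that also held 29 UMIs of Aqp2 and 118 of Atp6v1g3. Emcn, the endothelial sialomucin endomucin, had 2234 UMIs in 74 cells, and Kdr, the VEGF receptor, 1341 UMIs in 48 cells. Of these 95.8% and 98.2% lay in cells called endothelium. For comparison, the 158 barcodes of the Vsir-/- neutrophil cluster held 309 CPM of Umod, 107 of Kap, 63.1 of Emcn and 33.5 of Aqp2, and the 110 of them that were not called as a kidney lineage held 278 CPM of Umod, 101 of Kap, 14.4 of Emcn and 27.0 of Aqp2. Whether these UMIs were free RNA was not tested.

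**Figure D1:**
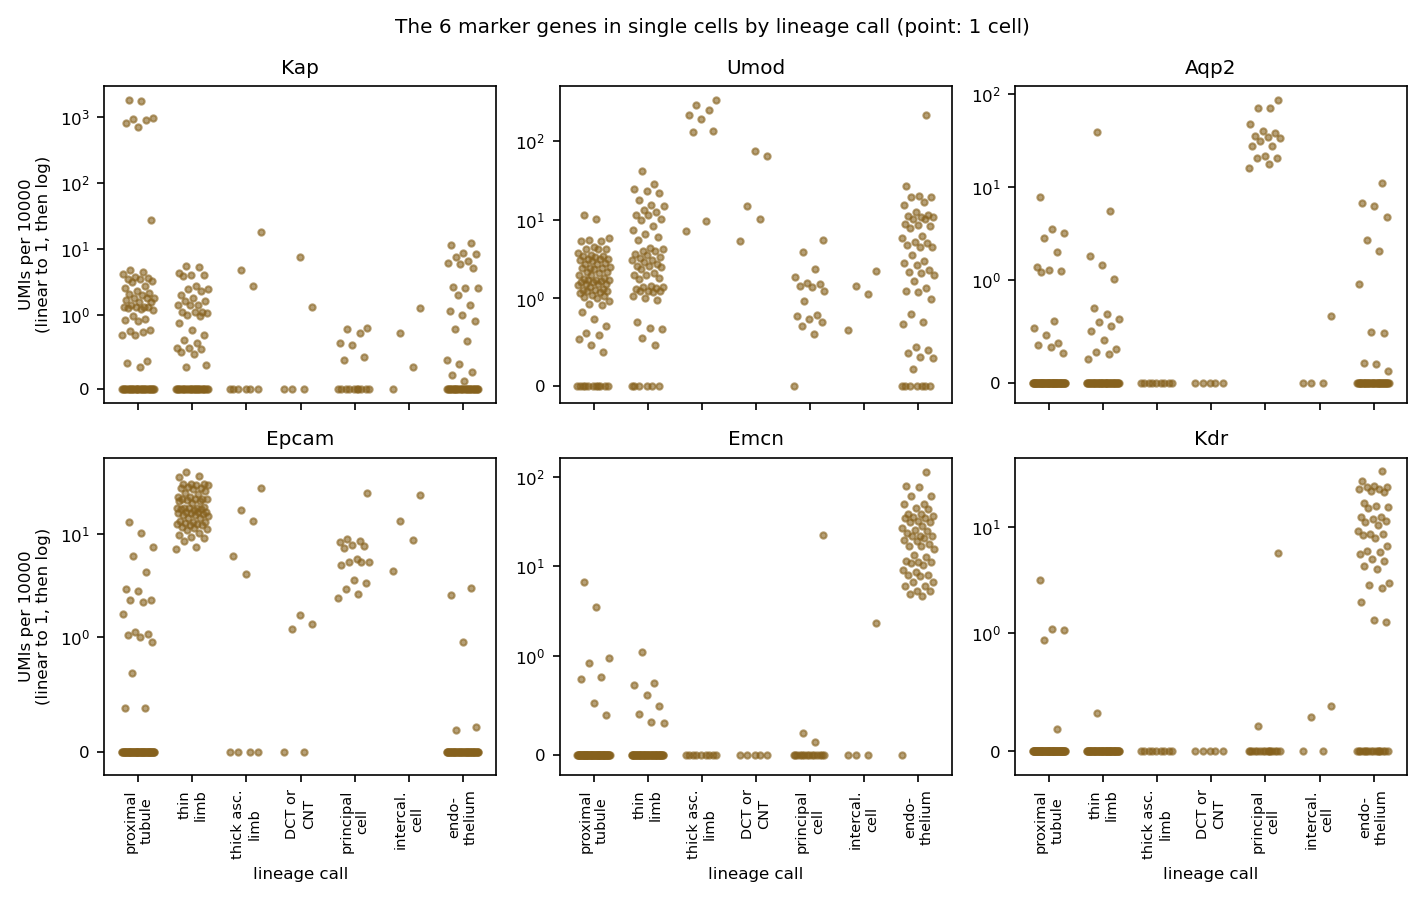
UMIs per 10000 of the 6 marker genes in each cell (point), by lineage call, on an axis that is linear to 1 and logarithmic above. Emcn and Kdr stand in the endothelium, Aqp2 in the cells called principal and Epcam in the thin limb and collecting duct, whereas Umod lies at low values in most cells and Kap at high values in 7 cells of the proximal tubule.

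Promoters of 3 genes are shown, Umod and Emcn of the markers above and Slc34a1, the phosphate transporter of the proximal tubule, which were chosen because they hold a motif that was searched. The promoters are RefSeq's for build GRCm38.p6 (300 bases, from 250 before to 50 after the start of the gene, 5′ to 3′ on the strand of the gene), whereas the submitters' processing notes list mm9, so that coordinates are not those of the deposited files. Capitals mark GTTAAT, the half-site of HNF1 factors of tubule epithelium, in Slc34a1 (chr13:55399398-55399697, + strand) and Umod (chr7:119479213-119479512, - strand), and ACAGGAAG, a motif of ETS factors, in Emcn (chr3:137340828-137341127, + strand), each searched on both strands. ATTAAC and CTTCCTGT are these letters read on the other strand.
Slc34a1: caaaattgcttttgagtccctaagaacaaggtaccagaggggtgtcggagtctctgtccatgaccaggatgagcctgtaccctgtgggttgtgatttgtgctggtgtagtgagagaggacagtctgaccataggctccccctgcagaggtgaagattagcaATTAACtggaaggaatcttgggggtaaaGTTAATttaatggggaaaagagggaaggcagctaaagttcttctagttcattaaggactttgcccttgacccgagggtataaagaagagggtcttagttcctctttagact
Umod: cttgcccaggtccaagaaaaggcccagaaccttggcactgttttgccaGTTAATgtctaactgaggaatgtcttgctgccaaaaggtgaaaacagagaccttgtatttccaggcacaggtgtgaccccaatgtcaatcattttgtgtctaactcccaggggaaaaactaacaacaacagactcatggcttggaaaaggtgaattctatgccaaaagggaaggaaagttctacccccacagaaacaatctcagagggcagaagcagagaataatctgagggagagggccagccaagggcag
Emcn: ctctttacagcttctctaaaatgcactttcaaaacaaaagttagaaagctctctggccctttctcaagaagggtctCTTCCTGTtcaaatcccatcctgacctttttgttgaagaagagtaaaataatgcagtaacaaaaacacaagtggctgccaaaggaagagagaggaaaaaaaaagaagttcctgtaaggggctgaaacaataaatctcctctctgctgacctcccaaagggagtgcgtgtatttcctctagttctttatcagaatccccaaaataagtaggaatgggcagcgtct
GTTAAT was present in 7.10% of all 32851 promoters of that length, in 8 of 31 promoters of the proximal tubule list, in 4 of 16 of the thick ascending limb list, in 2 of 11 of the intercalated cell list, in 1 of 18 of the distal convoluted or connecting tubule list, in 0 of 12 of the principal cell list, in 0 of 3 of the thin limb list and in 1 of 20 of the endothelium list. ACAGGAAG was present in 3.58% of all promoters, in 3 of 20 of the endothelium list, in 2 of 16 of the thick ascending limb list, in 1 of 31 of the proximal tubule list and in 0 of the other 4 lists. These 2 motifs were picked from 6 that were searched, and the other 4 (the full HNF1 site, which contains GTTAAT, and CAAAGTCCA, CCGGAAG and TGACCTTTG) were found in at most 1 promoter of any of the 7 lists searched. A gene with several starts has several promoters, and a match describes letters in this window and no binding.

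The cells were also clustered among themselves. There were 10 sub-clusters, and each is named below by its leading gene, the one with the highest fold over the other cells among genes found in at least 25% of its cells. The genes that lead a sub-cluster define it and are not findings about it. By the marker lists, 75 cells in 3 sub-clusters were proximal tubule-like (32.2%), 70 in 3 were thin limb-like (30.0%), 38 in 1 were endothelium-like (16.3%), and 50 cells in 3 sub-clusters (21.5%) were left without a name. The shares by sub-cluster moved with the settings, the thin limb to 13.3% and the unnamed cells to 42.9% at Leiden resolution 2, whereas the shares of the calls by cell stayed within their intervals in all 14 values recomputed without the subtraction or after thinning. Among the 99 cells with at most 5% of UMIs from mitochondrial DNA, a setting added after the data were seen, the calls were 15.2% proximal tubule, 34.3% thin limb and 37.4% endothelium, all outside those intervals. Lineages are described by call where both are given.

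**Figure D2:**
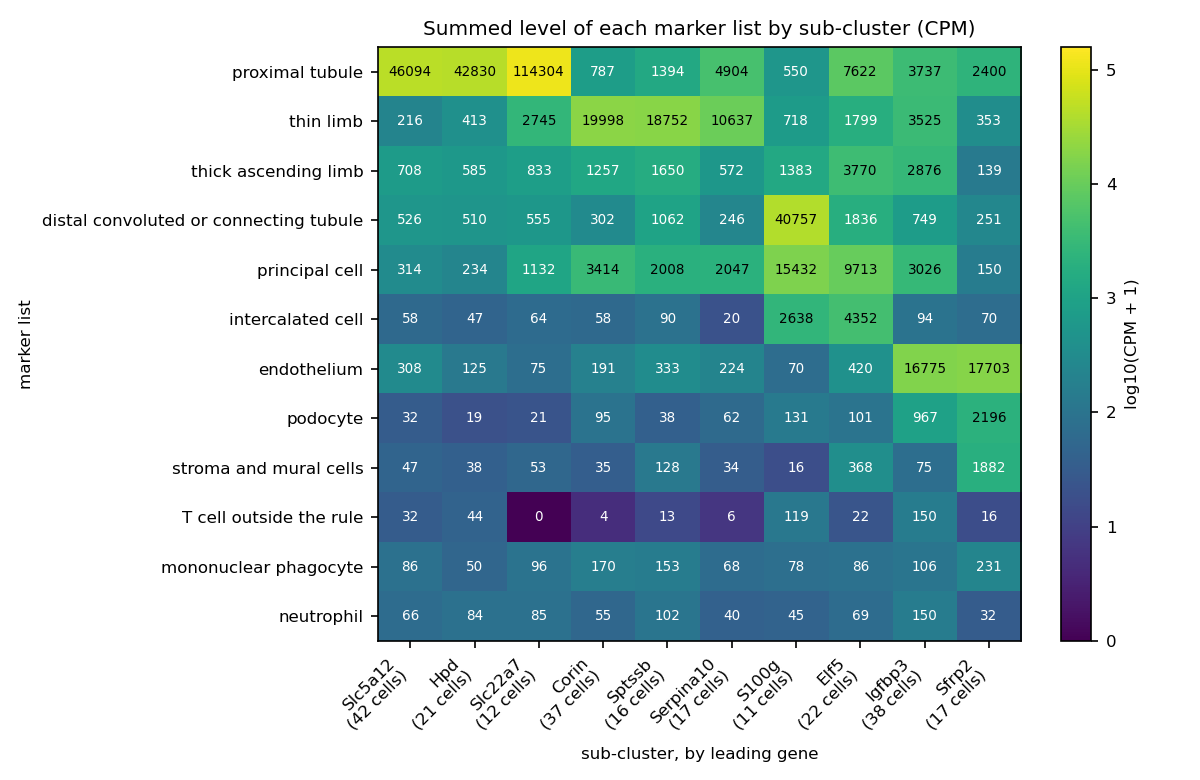
Summed level of each marker list (rows) in each sub-cluster (columns, by leading gene with the number of cells), in CPM as printed and as log10(CPM + 1) by colour. The proximal tubule list reaches 114304 CPM in the Slc22a7 sub-cluster, the endothelium list stands at 16775 and 17703 CPM in the Igfbp3 and Sfrp2 sub-clusters, and the lists of T cells, mononuclear phagocytes and neutrophils stay at 231 CPM or less.

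The proximal tubule was the lineage with the most cells among the 233, though not among the 99 with at most 5% mitochondrial UMIs. Its cells carried genes of more than 1 part of the segment. All 32 genes of its list had UMIs, and the list summed to 15926 CPM over the 233 cells (15792 to 16061), against 3265 CPM in the neutrophil cluster. In the 79 cells Gpx3, the secreted glutathione peroxidase, stood at 10111 CPM (9915 to 10310.2) and was found in all 79. Miox, which breaks down inositol, stood at 3987 CPM, and Slc34a1, the phosphate transporter, at 3298 CPM in 74 cells. Lrp2, the endocytic receptor megalin, had UMIs in 77 of the 79 cells and its partner Cubn in 64. Kap had a UMI in 49 of the 79 cells and 1 to 4 UMIs in 40 of them. The 110 neutrophil barcodes not called as a kidney lineage held 101 CPM of Kap.

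The 42 cells of the Slc5a12 sub-cluster carried mostly genes of the first and middle parts. The list of those parts summed to 4747, 2742 and 214 CPM in the Slc5a12, Hpd and Slc22a7 sub-clusters. The list of the last part summed to 282, 447 and 2094 CPM in the same order. Single genes of the last-part list ran otherwise. Slc22a30 had 43 UMIs in 15 of the 42 cells, and Slc5a8 had 36 UMIs in 15 of the 21 cells of the Hpd sub-cluster. Slc5a12, a lactate transporter, had 323 UMIs in 32 of the 42 cells, against 6 in the 21 cells of the Hpd sub-cluster and 0 in the 12 cells of the Slc22a7 sub-cluster. Slc5a2, the glucose transporter SGLT2, ran in the same order with 231, 24 and 0 UMIs. Gatm, an enzyme of creatine synthesis, stood at 2458, 1157 and 10.7 CPM in these 3 sub-clusters. Snhg11, a noncoding RNA, and Slc6a19, the neutral amino acid transporter, also led the Slc5a12 sub-cluster. The organic anion transporters ran otherwise: Slc22a6 stood at 246, 644 and 182 CPM, and Slc22a8 at 496 and 753 CPM with 0 UMIs in the third. The Hpd sub-cluster was led by Hpd, a tyrosine-breakdown enzyme, with Cyp2e1, Dpys, Cyp4a14 and Tmigd1. Cyp4a14, a fatty acid hydroxylase, was found in all 21 of its cells at 703 CPM against 37.3 CPM in all other cells.

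Kap was concentrated in few cells. In all, 7 cells, called proximal tubule and placed in the Slc22a7 sub-cluster, held between 215 and 2130 Kap UMIs each, which was 7.16 to 18.0% of all UMIs of the cell, and 6601 of the 6831 Kap UMIs (96.6%). The next cell held 25. The other 118 cells with a Kap UMI held at most 25 each. The Slc22a7 sub-cluster also held Napsa, an aspartic protease, at 21483 CPM against 74.9 and 550.3 CPM in the other proximal sub-clusters, Acy3, an aminoacylase of the last part, at 1634 CPM against 160.5 and 238 CPM, and Slc7a13, a cystine transporter of the last part, with 13 of its 15 UMIs. Aadat, Akr1c18, Mep1b and the transporter Slc22a19 led it besides Slc22a7. In contrast to the other proximal cells it was low in Slc34a1 (278 against 3836 and 3980.1 CPM) and Gpx3 (2104 against 14488 and 7985 CPM).

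The mitochondrial share of the proximal cells lay close to the upper limit of the deposited cells. The median share of UMIs from mitochondrial DNA was 7.54% in the 79 proximal cells, 4.95% in the thin limb and 4.08% in the endothelium, with a highest value of 9.99% among proximal cells, and 64 of the 79 were above 5%. The submitters kept cells up to 10%. When cells above 5% were left out, the summed proximal list fell to 5107 CPM from 15926 CPM, and 99 of the 187 cells then left in the cluster met the rule (52.9%). How many proximal cells lay above the limit was not tested.

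**Figure D3:**
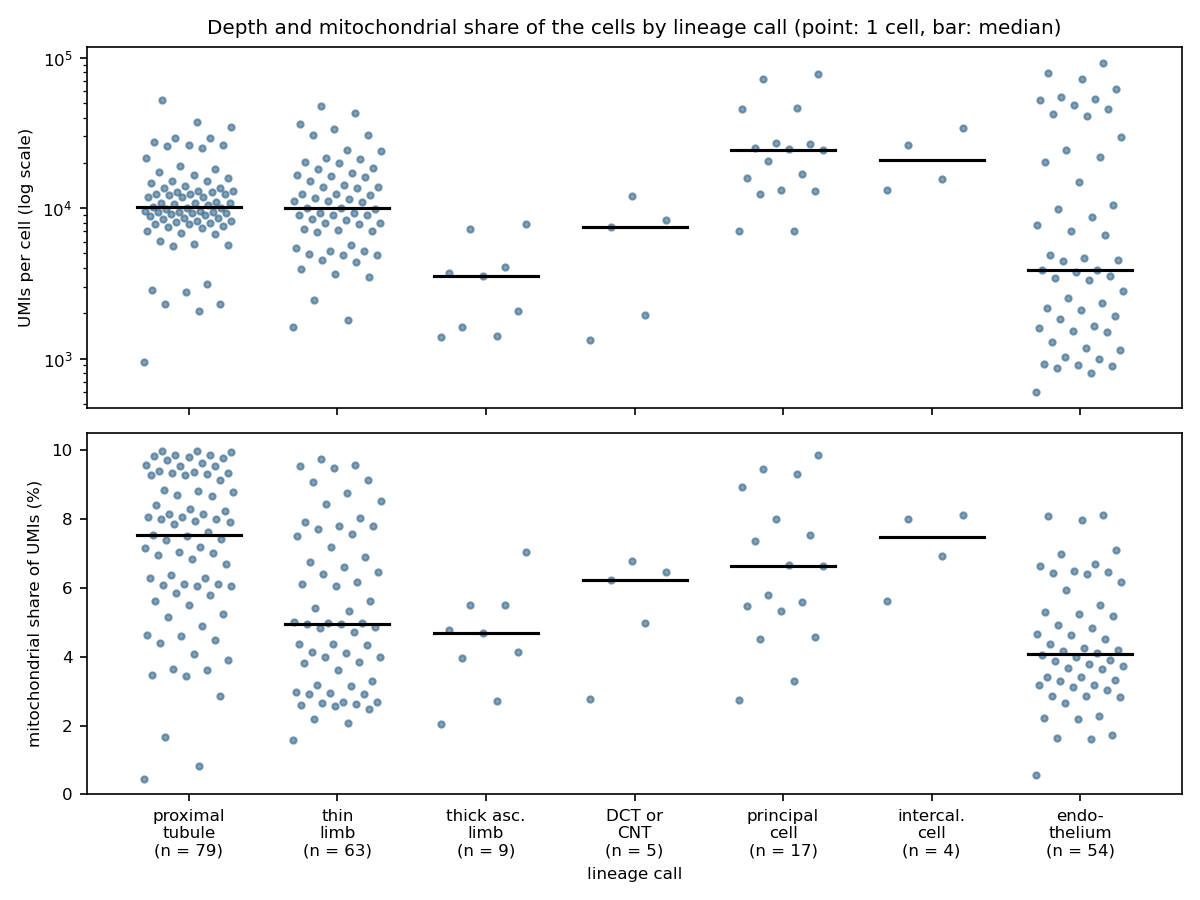
UMIs per cell on a log axis (upper panel) and the mitochondrial share of UMIs (lower panel) by lineage call, each point 1 cell and each bar a median. Principal cells have the highest median depth of the 5 lineages with 9 or more cells, the endothelium spans from 603 to 91812 UMIs, and proximal cells crowd below 10% mitochondrial share.

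The thin limb of Henle's loop was the second lineage. All 10 genes of its list had UMIs and the list summed to 5242 CPM over the 233 cells (5165 to 5319.6), against 382 CPM in the neutrophils. Cryab, a small heat shock protein of the inner medulla, was found in all 63 cells at 6284 CPM (6115 to 6458). Aqp1, a water channel of descending limbs and of the proximal tubule, had 2929 of its 3680 UMIs in 41 of them. Slc14a2, the urea transporter UT-A, had 2340 UMIs in 32. With a limit of 3 UMIs, 15 of the 63 cells held both, 23 held Aqp1 alone, 12 held Slc14a2 alone and 13 held neither, so that the 2 transporters overlapped without coinciding. Fst, which encodes follistatin, had 2381 UMIs in 18 cells and 0 in the other cells of the 233. Bst1 was found in 52 cells and Epcam in all 63.

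The 3 thin limb-like sub-clusters differed in these genes. In the 37 cells led by Corin, the atrial natriuretic peptide protease, Slc14a2 stood at 4391 CPM in 26 cells and Aqp1 at 4102 CPM in 25 cells. Corin itself was found in 12 of the 37 cells and in 0 elsewhere, and Npy and Wnt11 in 8 each. In the 16 cells led by Sptssb, a subunit of sphingolipid synthesis, Slc14a2 had 1 UMI, Aqp1 had 119 UMIs in 6 cells, and Akr1b3, the aldose reductase that makes sorbitol, stood at 3619.9 CPM against 809 CPM in the Corin sub-cluster. The third sub-cluster, led by Serpina10 (17 cells), met the rule for thin limb on 1 gene of its list among its top 20, Fst, and only 10 of its cells were called thin limb, with 3 proximal tubule, 2 endothelium, 1 thick ascending limb and 1 without a call. It held Cdkn1a, a cell cycle inhibitor, at 436 CPM, but 144 of these 154 UMIs lay in the 1 barcode without a call.

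Spp1, the gene of the secreted phosphoprotein osteopontin, was the most abundant transcript outside mitochondrial DNA and Malat1. It had 23154 UMIs in 227 of the 233 cells (6853 CPM, 6765 to 6942). In the thin limb it stood at 17880.1 CPM, in cells called principal at 6544, in the proximal tubule at 4427 and in the endothelium at 506 CPM. In the 39 cells called endothelium outside the Sfrp2 sub-cluster it stood at 2101 CPM, with 164 of 291 UMIs in 1 cell. Among cells called thin limb it was not even, at 13750.4 CPM in the 36 of the Corin, 2430.3 CPM in the 16 of the Sptssb and 33964 CPM in the 10 of the Serpina10 sub-cluster.

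The thick ascending limb was represented by 9 cells of low depth (median 3565 UMIs). Umod had 652 UMIs in all 9, at 19755 CPM (18267 to 21331), but was uneven. The cell of the Sfrp2 sub-cluster held 1 of these UMIs and that of the Serpina10 sub-cluster 2. Slc12a1, the sodium-potassium-chloride cotransporter, had 114 UMIs in 6 of them and Egf, the epidermal growth factor precursor, 125 in 8. In 3 of the 9 cells Slc12a1 was at 0, among them the cell of the Corin sub-cluster, which held 46 UMIs of Slc14a2 and 17 of Npy. The 5 cells called distal convoluted or connecting tubule held 203 UMIs of Slc12a3, the thiazide-sensitive cotransporter, in 4 cells, 61 of Pvalb, a calcium-binding protein of the early distal convoluted tubule, and also 154 of Umod.

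The collecting duct and the connecting segment before it gave epithelial cells of high depth. The 17 cells called principal had a median of 24263 UMIs. Aqp2 was found in all 17, at 3750.4 CPM (3579 to 3928), as were Aqp3, the basolateral water channel, Fxyd4, a sodium pump regulator, and Avpr2, the vasopressin receptor. Hsd11b2, the enzyme that shields the mineralocorticoid receptor from glucocorticoids, stood at 3271 CPM in 16 cells. Aqp4 was found in 9. Of these cells 11 formed the S100g sub-cluster, which was left without a name because genes of the distal convoluted or connecting list led its first 10 genes while the principal cell list had more genes in its first 20. S100g, the calcium-binding protein calbindin-D9k, had 7628 UMIs in 10 of the 11 cells (31299 CPM). Calb1, calbindin-D28k, had 541 UMIs in all 11, and Trpv5, the apical calcium channel, 37 in 10. In the same barcodes Aqp2 reached at least 3 UMIs in all 11 cells and the sodium channel subunit Scnn1g had UMIs in all 11. Calcium transport and water channel genes thus stood in the same barcodes, which were not screened for doublets. Those of 46022 and 46376 UMIs also held 141 and 84 UMIs of the intercalated cell gene Atp6v1g3, and the second 29 of Slc26a4.

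The 22 cells of the Elf5 sub-cluster were a mixture, with 6 calls of thick ascending limb, 5 principal, 4 intercalated, 4 distal convoluted or connecting tubule and 1 each of thin limb, proximal tubule and stroma. They were left without a name since no call was held by 50% of them. Aqp2 had 1036 UMIs in 8 of them and Slc12a1 125 in 15, and with a limit of 3 UMIs 1 cell held both. All 4 intercalated cells were in this sub-cluster. They held Atp6v1g3, a proton pump subunit, in all 4 (218 UMIs) and Foxi1, the transcription factor of these cells, in all 4 (50 UMIs). In 1 of the 4, a barcode of 34351 UMIs, 12 UMIs of Atp6v1g3 stood beside 43 of S100g, 8 of Emcn and 9 of Sox17. Aqp6 and Slc4a1, markers of the acid-secreting type A cell, had 99 and 43 UMIs in 1 cell each, whereas Slc26a4, the pendrin gene of type B cells, had 30 in 2 and Hmx2 145 in 3. Most UMIs of Aqp6 (140 of 262) and Atp6v1g3 (393 of 782) lay in barcodes called principal, as did 57 of the 114 of Foxi1, and a barcode of 72740 UMIs held 147 of Aqp2, 101 of Aqp6 and 129 of Atp6v1g3.

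The endothelium made up 54 cells by call and fell into 2 groups of very different depth. Emcn was found in 53 of the 54 cells at 2439.6 CPM (2337 to 2545), Cdh5, the VE-cadherin gene, in 42 and Kdr in 38. The 38 cells of the Igfbp3 sub-cluster had a median of 2667 UMIs, and Emcn had 297 UMIs in 37 of them. They held Ly6c1 at 1984 CPM, Plvap, the diaphragm protein of peritubular capillaries, at 1004 CPM in 17 cells, and Sox17, a transcription factor of arteries, at 462 CPM in 17 cells. Slc14a1, the urea transporter UT-B of descending vasa recta, had 29 UMIs in 6 cells. Aqp1 was found in this sub-cluster too, with 117 UMIs in a barcode of 15024 UMIs called endothelium. Over all 54 cells and with a limit of 3 UMIs, Plvap and Sox17 were both present in 10 cells, Plvap alone in 17, Sox17 alone in 6 and neither in 21. In the 17 cells of the Sfrp2 sub-cluster the median depth was 45428 UMIs, and Ehd3, a marker of glomerular endothelium, stood at 2669 CPM against 549 CPM in the Igfbp3 sub-cluster, and 323 CPM there without its 1 barcode called principal. Kdr stood at 1681 against 518 CPM, and Plvap ran the other way, at 383 against 1004 CPM. The list of 6 peritubular capillary genes that holds Plvap did not run with it. That list, in which Igfbp7 was the most abundant gene, summed to 12920 CPM in the Sfrp2 against 5877 CPM in the Igfbp3 sub-cluster.

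The deep endothelial barcodes carried transcripts of more than 1 cell type. Of the 17 barcodes in the Sfrp2 sub-cluster, 15 held at least 3 UMIs of Emcn and Kdr and at least 3 UMIs of Itga8 and Pdgfrb, genes of mesangial and other mural cells, against 0 of the 38 barcodes in the Igfbp3 sub-cluster. Sfrp2 had 1206 of its 1209 UMIs in this sub-cluster, in all 17 barcodes, Cxcl13, a chemokine for B cells, 763 of 768, Itga8 319 of 321 and Wt1, a podocyte transcription factor, all 47 in 10 barcodes. The podocyte list and the list of stroma and mural cells tied among its leading genes, and the sub-cluster was left without a name. The other 2 barcodes held 1327 and 1403 UMIs, with 0 UMIs of Emcn and Kdr. Cells were not screened for doublets, and whether these barcodes held several cells was not tested. The UMI counts of the 15 barcodes, 20227 to 91812, lay beside the median of 9616 over all 233 cells. These 15 barcodes held 739060 of the 877594 UMIs of the cells called endothelium (84.2%), so that levels summed over that lineage are mostly theirs. In the other 39 cells called endothelium Emcn stood at 1833 CPM, Kdr at 505 CPM and Ehd3 at 318 CPM.

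**Figure D4:**
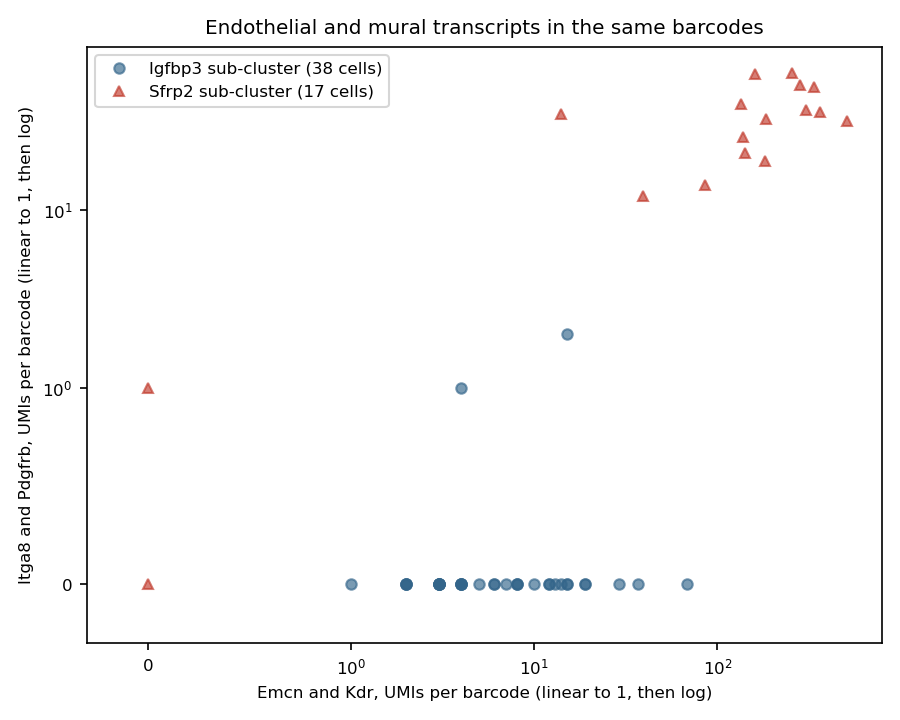
UMIs of Itga8 and Pdgfrb against UMIs of Emcn and Kdr in each barcode (point) of the Igfbp3 (circles) and Sfrp2 (triangles) sub-clusters, both axes linear to 1 and logarithmic above. In all, 15 triangles stand high on both axes, whereas the circles stay at 2 UMIs or less on the vertical axis.

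Some other barcodes held both epithelial and endothelial transcripts. With a limit of 3 UMIs, 91 cells held Epcam without Emcn and Kdr, 50 held Emcn and Kdr without Epcam, and 2 held both. Of the cells with Aqp2, 8 also held Slc34a1 and 13 did not, and 7 of the 52 cells with Emcn and Kdr held Slc34a1. A barcode of 10437 UMIs in the Igfbp3 sub-cluster held 223 UMIs of Umod and 22 of Slc12a1 beside 28 of Emcn and 35 of Plvap, and one of 24263 UMIs held 116 of Aqp2 beside 54 of Emcn. Slc34a1 was also found in the neutrophil cluster, at 289.6 CPM, and at 144 CPM in its 110 barcodes without a kidney lineage call.

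Leukocyte transcripts were few. Ptprc, the gene of CD45, had 23 UMIs in 15 of the 233 cells (6.81 CPM, 4.32 to 10.2), against 319.9 CPM in the 116 cells of the cluster with a T cell transcript and 1166 CPM in the neutrophils. Of the 16 T cell genes outside the rule, Cd4, Cd28, Cd5, Cd6, Themis and Il7r were at 0 UMIs, and the list summed to 108 UMIs, 32 CPM against 1709 CPM. Its most abundant gene was Cd8a with 36 UMIs. The neutrophil list summed to 60.1 CPM, with Cxcr2, Il1r2, Acod1 and Ly6g at 0 and S100a9 the most abundant gene, and the mononuclear phagocyte list to 127 CPM, led by Lyz2. The B cell list summed to 330 UMIs, of which 319 were Ebf1, 301 of these in cells called endothelium, with Cd79a, Ms4a1, Ighd, Pax5 and Cd22 among the genes at 0, and the NK cell and ILC list to 674, of which 382 were Gata3, with 250 of these in cells called endothelium, and with Ncr1, Eomes, Klra4 and Il1rl1 at 0. These 2 lists had 263 and 308 UMIs in the Sfrp2 sub-cluster, whose barcodes also held mural transcripts, and 40 and 21 in the Igfbp3 sub-cluster. Srgn, a proteoglycan gene listed with the leukocytes, had 994 UMIs and stood at 1059 CPM in the endothelium with 20 UMIs in the proximal tubule.

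Kidney lineage calls did not stop at the limit of the rule. Of the 22 Vsir-/- cells of the cluster with 1 T cell UMI, 21 were called as a kidney lineage and 3 held Ptprc. Of the 3 cells with 2 UMIs, 2 were called as a kidney lineage. Of the 91 cells with 3 or more, 82 were called by the T cell list and 88 held Ptprc, and 9 were called as a kidney lineage, 6 of them endothelium. The 32 kidney-called cells with a T cell transcript held 799592 UMIs, 65.6% of the UMIs of the 116 cells.

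Set against those 116 cells, 1673 of 11647 genes (14.4%) were more than 2-fold higher in the 233 cells and 696 (5.98%) more than 2-fold lower, on the scale of log2 CPM with 0.5 UMIs added. The median over all genes was 0.18, and when the ratios were centred on it 1235 genes were higher and 939 lower. The rule used the same cells, and most UMIs of the comparison cells lay in cells called as a kidney lineage. These counts therefore describe the sets and support nothing. Of the proximal tubule list 28 of 31 genes were higher and 0 lower, with a median of 1.49, and of the thin limb list 9 of 10 were higher, with a median of 2.26. Of the principal cell list 2 of 16 were higher and 1 lower, with a median of 0.03, and of the endothelium list 0 of 26 were higher and 0 lower, with a median of -0.48. The general leukocyte genes were lower in 12 of 12 and the T cell genes outside the rule in 15 of 16. Against the 91 cells with 3 or more T cell UMIs, a set chosen after the values were seen, 3124 genes (27.4%) were higher and 894 (7.83%) lower, with 13 of 16 principal cell genes higher and 0 of 26 endothelial genes. The genes with the highest ratios were Igfbp2, Ccl21a, Serpina1a, Corin and Akr1c18, all at 0 UMIs in the comparison cells, and those with the lowest were Trbc1, Il7r, Cd3d, Cd3g and Trbc2, 4 of which the rule had set to 0.

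Genes of kidney injury and repair were mixed. Of 36 genes in this group 35 had UMIs, and 12 of 32 were more than 2-fold higher than in the comparison cells and 1 lower, with a median of 0.50, beside 14.4% and 5.98% of all genes. Against the 91 cells with 3 or more T cell UMIs 18 of 31 were higher, beside 27.4% of all genes. Spp1, Cryab, S100a11 and S100a6 were its most abundant genes. Havcr1, which encodes the tubular injury molecule KIM-1, had 11 UMIs in 5 cells and 0 in the 79 proximal cells, which allows up to 3 counts among their 1000276 UMIs. Krt20 was at 0. Lcn2, the iron-binding protein lipocalin-2, had 703 UMIs in 53 cells, and whether some of these were free RNA was not tested. Clu, clusterin, had 1569 UMIs in 93 cells and Vcam1 153 in 37. Most UMIs of Spp1 and Cryab lay in the thin limb, and Cryab was also a gene of the thin limb list.

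Genes of MHC class I stood higher in the endothelium than in the proximal tubule and thin limb, whereas genes of MHC class II and of the interferon response were not all highest there. B2m, the light chain of MHC class I, stood at 3916 CPM in the endothelium, 946 in the proximal tubule and 699 in the thin limb. H2-D1 and H2-K1, class I heavy chains, followed with 3842 and 3168 CPM in the endothelium against 461 and 522 CPM in the proximal tubule. Cd74, the invariant chain of MHC class II, stood at 724 CPM in the proximal tubule, 119 CPM in the endothelium and 76.2 CPM in the thin limb. The neutrophil cluster held 404 CPM of Cd74. In the 39 cells called endothelium outside the Sfrp2 sub-cluster B2m stood at 3761 CPM, H2-D1 at 3465 CPM, H2-K1 at 2880.2 CPM and Cd74 at 245 CPM. A single proximal cell held 256 of the 724 proximal Cd74 UMIs. Over the group 1 of 31 genes was higher than in the comparison cells and 10 were lower, with a median of -0.67, beside 14.4% and 5.98% of all genes. Among type I interferon genes, Rsad2 stood at 477 CPM in the endothelium and 5 in the proximal tubule, and Ifit3 at 559.8 CPM in the thin limb and 145 in the endothelium. Rsad2 stood at 859 CPM in those 39 cells. Ifi27 and Bst2 were its other abundant genes, and Mx1 was at 0.

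Within the list of cytokine and growth factor genes, Spp1, Mif, Vegfa and Hbegf were the most abundant, and Il6, Ccl7, Cxcl5 and Lif were at 0. Outside that list, Cxcl13 with 768 UMIs and Gdf15 with 446 stood above Vegfa (383) and Hbegf (364). Tnf had 2 UMIs and Il1b 14. Il34, a ligand of the macrophage receptor Csf1r, had 57 UMIs in 46 cells and Csf1 160 in 39. Of the receptors, Tgfbr2, Il6st, Lifr and Tnfrsf1a led and Il9r was at 0. The interferon gamma receptor chains Ifngr1 and Ifngr2 had 209 and 136 UMIs. Among checkpoint ligands and adhesion molecules Cd47, Icam2, Cd200 and Lgals9 led, each highest in the endothelium among the 3 largest lineages (Cd47 489, Icam2 402, Cd200 259 and Lgals9 242 CPM, and 440.3, 491, 686 and 159 CPM without the Sfrp2 sub-cluster), while Vsir, Pdcd1lg2 and Tnfsf4 were at 0. Il9 was not analysed here.

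The 4 most abundant matrix genes had most of their UMIs in the endothelium, whereas others had their largest share in the thin limb. Among the latter were Col4a4 (47.9%), Col18a1 (43.4%), Col4a3 (47.2%), Lamb1 (56.9%) and Col4a5 (57.5%). Sparc, Col4a1, Ccn2 and Col4a2 led the group, at 4496, 1862, 1282 and 1128 CPM in the cells called endothelium. Without the Sfrp2 sub-cluster they stood at 2981, 664, 101 and 389.8 CPM, and the group summed to 12367 CPM in that sub-cluster against 5471 CPM in the Igfbp3 sub-cluster. Of the fibrillar collagens, Col1a2 had 84 UMIs, Col5a1 22 and Col1a1 and Col3a1 8 each, and Mmp7 was at 0. Of 24 matrix genes 6 were higher than in the comparison cells and 1 was lower, beside 14.4% and 5.98% of all genes. Against the 91 cells with 3 or more T cell UMIs 6 of 23 were higher, beside 27.4% of all genes.

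Fatty acid genes stood highest in the proximal sub-clusters. The group stood at 8188, 11080.5 and 11388 CPM in the 3 proximal sub-clusters and at 3095 CPM in the Corin and 4367 CPM in the Igfbp3 sub-cluster. Etfb, Acsm2 and Slc27a2 were its abundant tubular genes, and Fabp4, a fatty acid carrier of capillaries, stood at 1511 CPM in the endothelium, 2101 CPM there without the Sfrp2 sub-cluster, and 18 in the proximal tubule. The 66 nuclear genes of the respiratory chain summed to 45407 CPM, from 22016 in the Sfrp2 to 70082 in the Serpina10 sub-cluster, led by Cox8a, Cox4i1, Cox6c and Atp5b. Of the glycolysis group, Gapdh, Ldhb and Aldoa were among the most abundant, and Ldhb stood at 1293 CPM in the proximal tubule and 116 in the endothelium, or 296 CPM there without the Sfrp2 sub-cluster. All 40 solute and water transport genes had UMIs. Fxyd2, a sodium pump regulator, and Atp1b1, the beta subunit of the pump, led this group with 10453 and 7550 UMIs, and stood at 5241 and 1299.6 CPM in the proximal tubule, 4450.4 and 4705 in the thin limb, and 325 and 107 in the endothelium, or 917 and 419 CPM there without the Sfrp2 sub-cluster. Against the comparison cells 17 of 37 fatty acid genes, 17 of 38 transport genes and 1 of 66 respiratory chain genes were higher, beside 14.4% of all genes. Against the 91 cells with 3 or more T cell UMIs the counts were 27 of 37, 32 of 38 and 46 of 66, beside 27.4% of all genes.

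Early-response genes of tissue dissociation were found in all lineages of 4 or more cells. Hspa8, Jun, Jund and Fos led the group, Jun at 1036 CPM in the proximal tubule, 768 in the thin limb and 1031 in the endothelium. None of the 27 tested genes of the group was higher than in the comparison cells and 8 were lower, beside 14.4% and 5.98% of all genes, and the group stood at 7874 CPM against 12668. Cell cycle genes were led by Tubb5, Hmgb2, Stmn1 and Pcna, and Mki67 had 38 UMIs in 18 cells.

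Kidney lineage calls were made in other clusters of the Vsir-/- library too, and whether free RNA gave some of them was not tested. A kidney lineage was called in 579 of its 1844 cells (31.4%, 29.3 to 33.6%), of which 264 (45.6%) lay in the non-EM-like CD4+ T cell cluster, counting those with T cell UMIs. The proliferating cluster held 123 cells without a T cell transcript, of which 57 were called proximal tubule and 48 endothelium, with 2 thin limb. The thin limb made up 63 of 233 cells in the CD4+ cluster and 2 of 123 in the proliferating cluster, and the endothelium 54 of 233 and 48 of 123. Both sets come from 1 library, and their difference was not tested. In the WT library 2 of 5470 cells were called as a kidney lineage (0.0366%, 0.00443 to 0.132%), 1 in the neutrophil and 1 in the pDC cluster. By the labels the libraries differ in sort as well as genotype.

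**Figure D5:**
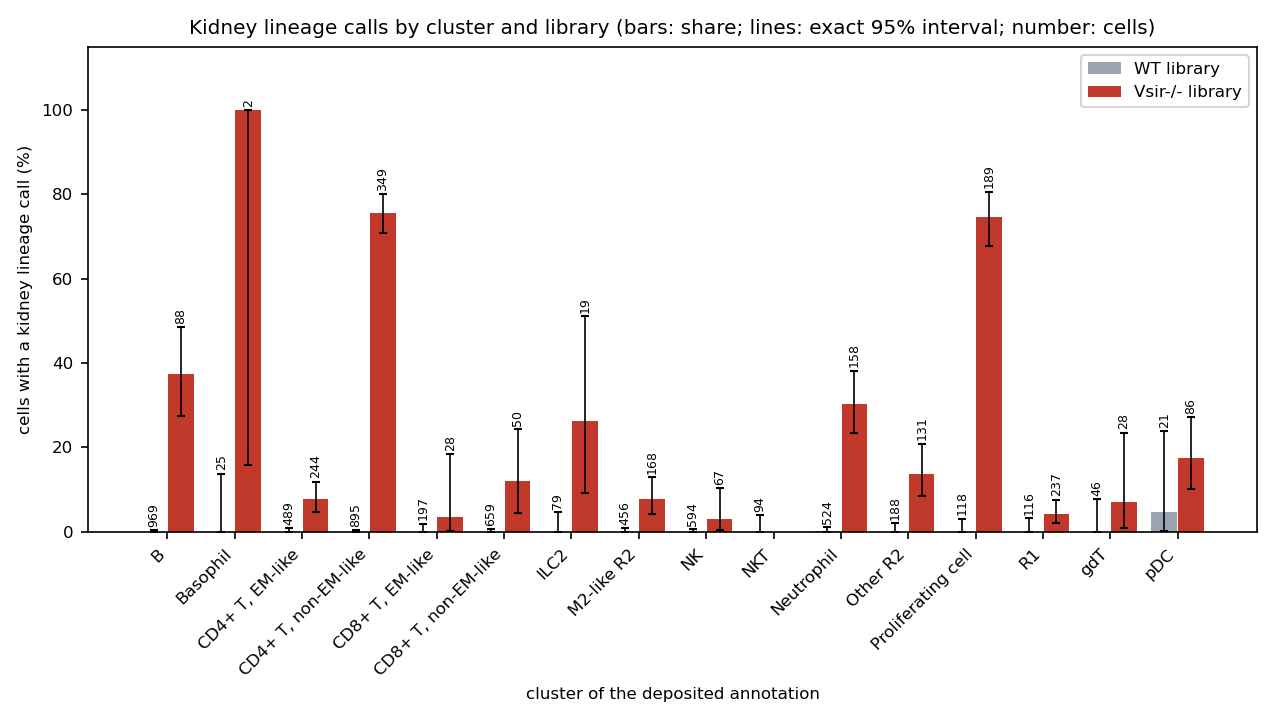
Share of cells called as a kidney lineage in each cluster of the deposited annotation, for the WT and the Vsir-/- library, with exact 95% intervals as lines and the number of cells above each bar. The non-EM-like CD4+ T and the proliferating clusters stand highest among Vsir-/- clusters of more than 2 cells, at 75.6% and 74.6%, and WT clusters are at or near 0.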

How the data were processed

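Kidney cells of 1 WT and 1 Vsir-/- library were profiled by droplet sequencing. The authors deposited whole UMI counts per gene and cell (20299 genes, 7314 barcodes) with the library, the cluster and the percent of UMIs from mitochondrial DNA of each cell. Per the study's methods, genes were kept in 5 or more cells and cells with 200 or more UMIs and at most 10% mitochondrial UMIs. The submitters' processing notes name Cell Ranger 3.1.0, Seurat 3.2.3, R 4.0.3 and mm9. The deposited cells were fewer than those in the study's map. Doublets were not removed here. The libraries shared 5 barcodes, 0 of them among the 233 cells. All table columns with values by sample were mapped.

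The members and lists were chosen with earlier results of these data known. Counts were read in Python 3.11.15 (numpy 2.4.6, scipy 1.17.1, pandas 2.3.3, matplotlib 3.10.9). Scanpy 1.11.5 clustered the 233 cells: counts per 10000, ln(1+x), 2000 variable genes among those in 3 or more cells, values scaled to at most 10, 15 principal components, 10 neighbours, Leiden resolution 1, seed 0. A sub-cluster took the name of the marker list with the most genes among its top 20 by fold (20 or more UMIs) if at least 3 list genes had a UMI in 25% of its cells and no list tied. It stayed unnamed where another list led its first 10 genes or, a condition added after the data were seen, where under 50% of its cells had that call. A cell was called by the list with the highest mean of ln(1+UMIs per 10000), less that of the neutrophils of its library, if the score was above 0.1 and 3 genes had a UMI. Ratios used log2 CPM with 0.5 UMIs added for genes with 20 or more UMIs, called past 1. The steps were checked on simulated data.

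The genes named are the 6 markers, the 10 most abundant genes, the 5 leading genes and 5 most abundant list genes of each sub-cluster, the 4 most abundant genes and those at 0 of each group, and the 5 most and least enriched genes (50 or more UMIs). Any other gene was named after its values were seen, and some genes the rule names are not reported here. Promoters and motifs were read from RefSeq (GRCm38.p6).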

Additional observations from a re-analysis of the deposited data

How the results depend on the processing

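With 1 library per genotype, no spread between animals could be measured, and the intervals cover counting error only. No paired analysis was possible because each genotype had 1 library. The shares of the lineage calls stayed within their intervals without the neutrophil subtraction and after thinning to 1000 UMIs. With cells of at most 5% mitochondrial UMIs, a setting added after seeing the data, they were 15.2% proximal tubule, 34.3% thin limb, 37.4% endothelium, 4.04% principal cell and 0% intercalated cell. The share of the cluster found by the rule moved from 66.8% to 52.9% with cells of at most 5% mitochondrial UMIs and to 73.5% with cells thinned to 1000 UMIs, and was 62.5% when 8 more T cell genes, or Ptprc, had to be at 0. Of the shares by sub-cluster, resolution 2 gave 13.3% thin limb, 7.30% endothelium and 42.9% unnamed, and 8 principal components 18.5% thin limb and 29.6% unnamed. The call of each cell gave 23.2% endothelium. The limit of 5% gave 15.2% proximal tubule, 37.4% thin limb, 8.08% endothelium and 39.4% unnamed. The summed level of the proximal tubule list was 19422 CPM as a mean over cells, 16649 CPM without cells with a Ptprc UMI and 5107 CPM with the 5% limit. That of the thin limb list was 6149.6 CPM as a mean over cells and 5666 CPM with the limit. That of the endothelium list was 4487 CPM, 4680.1 CPM and 10479 CPM in the same order of settings as for the proximal tubule, and that of the principal cell list 2487 CPM, 3047 CPM and 2014 CPM. With 50 UMIs in place of 20, 426 genes were lower in place of 696. Against cells with 3 or more T cell UMIs, a set chosen after seeing the data, 3124 genes were higher in place of 1673. The cause of these shifts was not tested.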

Other observations

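A single barcode of the Igfbp3 sub-cluster held genes of lymphatic endothelium, with 139 UMIs of Ccl21a, 28 of Mmrn1, 20 of Lyve1 and 7 of Prox1, and 0 of Emcn. It held 139 of the 141 Ccl21a UMIs of the 233 cells.

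Cd8a, a T cell gene outside the rule, had 36 UMIs in 10 of the 233 cells, and 29 of them lay in 7 of the 11 cells of the S100g sub-cluster, with 1 to 9 UMIs in a cell, where Cd8b1 was at 0. Ptprc had a UMI in 2 of those 7 cells. Igfbp2 had 210 of its 211 UMIs in 1 cell, and Klk1, a tissue kallikrein of the connecting tubule, 1239 of its 1329 UMIs among principal cells in 1 cell.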
